A study of Homo sapiens with 6 samples.

Results

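The pyruvate dehydrogenase complex turns pyruvate into acetyl-CoA inside mitochondria and so joins glycolysis to the citric acid cycle. Here its 4 regulatory kinases (PDK1, PDK2, PDK3 and PDK4), the phosphatase subunit PDP1 and the catalytic subunits PDHA1 and PDHB were followed in AN3-CA, a line of human endometrial cancer cells. These 7 genes were taken by exact gene symbol and are measured by 17 of the 49293 probe sets on the array, which hold 19040 genes in all. PDK4 was chosen by its log2 fold change in these same data, where it stood at rank 3 among the 434 genes called higher with AZD4547 and aFGF than with DMSO, and the other members were chosen as its partners with results of these arrays known. No threshold was used. Values of the members in the 3 comparisons are therefore a description. They carry no p-value of their own.

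Cells were plated for 24 h and then kept for 18 h in serum-free medium under 3 conditions, with 2 arrays of separately labelled biological replicates in each. The first group received 300 nM AZD4547, which blocks the kinase activity of FGF receptors, together with 10 ng/mL aFGF (acidic fibroblast growth factor). The amount of DMSO in it is not given. The second received aFGF at the same dose with 0.5% DMSO, and the third received DMSO without aFGF. No group had AZD4547 without aFGF, and all cells are of a single line. The labels call the replicates biological but do not describe separate cultures beyond 6 dishes, so the errors measure the spread between these dishes. With 2 arrays a side, an exact two-sided permutation test of a single gene cannot go below p = 0.333, so the gene calls used here come from a model fitted to all genes at once.

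Array medians of log2 intensity lay between 2.84 and 2.89, and the median SE of a log2 fold change was 0.117. Of 13 endometrial and epithelial markers, 6 stood above the array medians on every array, among them HOXA10 (mean log2 intensity 7.05), HOXA11 (5.38), FGFR2 (7.90) and the keratin KRT18 (4.27), whereas EPCAM (0.47), CDH1 (1.15) and KRT19 (0.99) lay below them. Of the 4 endothelial markers and the 4 leukocyte markers none was above the medians on every array, of 6 fibroblast markers 1 was (COL1A2, 9.70), and of 4 muscle markers 1 was (DES, 3.28).

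As background, the kinases phosphorylate the catalytic subunit encoded by PDHA1 and switch the complex off, which keeps pyruvate from oxidation, and the phosphatase built on PDP1 removes the phosphate and switches it on again. The kinases have different inputs: PDK1 is a well-known target of the hypoxia-inducible factors (HIF), while PDK4 is raised in fasting muscle and liver by FOXO factors, PPARs and glucocorticoid. Growth factor signalling through AKT holds FOXO factors out of the nucleus. Transcript levels, which are all that was measured here, do not show the phosphorylation state of the complex.

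The 4 kinase genes did not move as a unit. PDK1, PDK2 and PDK3 were lower with aFGF than with DMSO and higher when AZD4547 was added, whereas PDK4 was higher with aFGF and stayed high when AZD4547 was added. Because of this split, the 250 bases before the annotated start are shown for each kinase gene, 5′ to 3′ on the gene's strand, from RefSeq on GRCh38.p14. PDK4 lies at chr7:95596517-95596766 (minus strand) and PDK3 at chrX:24465036-24465285 (plus strand). For PDK1 (2 annotated starts) and PDK2 (3 annotated starts) the start shown is the one whose window holds a match, at chr2:172555840-172556089 and chr17:50095101-50095350 (both plus strand), and the other starts of both genes held none. Capitals mark matches, on either strand, to the motifs searched: GTAAACA (FOXO), a direct repeat of AGGTCA with 1 base between (PPAR with RXR), TNAAGGTCA (estrogen-related receptors), ACGTG and GCGTG (the HIF core) and CACGTG (an E-box, which contains ACGTG on both strands).
PDK4: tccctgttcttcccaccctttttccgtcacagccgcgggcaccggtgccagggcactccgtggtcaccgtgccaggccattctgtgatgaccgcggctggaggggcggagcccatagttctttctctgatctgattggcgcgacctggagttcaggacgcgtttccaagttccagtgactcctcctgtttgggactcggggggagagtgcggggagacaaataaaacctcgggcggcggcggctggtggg
PDK1: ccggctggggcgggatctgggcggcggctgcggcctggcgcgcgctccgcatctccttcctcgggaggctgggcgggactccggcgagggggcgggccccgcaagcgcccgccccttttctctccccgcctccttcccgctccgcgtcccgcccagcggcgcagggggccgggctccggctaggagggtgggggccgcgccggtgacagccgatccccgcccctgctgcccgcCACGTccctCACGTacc
PDK2: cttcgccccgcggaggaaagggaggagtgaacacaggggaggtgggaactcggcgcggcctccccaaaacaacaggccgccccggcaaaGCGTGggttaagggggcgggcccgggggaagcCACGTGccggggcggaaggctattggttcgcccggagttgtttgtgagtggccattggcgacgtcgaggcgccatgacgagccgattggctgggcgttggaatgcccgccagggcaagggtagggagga
PDK3: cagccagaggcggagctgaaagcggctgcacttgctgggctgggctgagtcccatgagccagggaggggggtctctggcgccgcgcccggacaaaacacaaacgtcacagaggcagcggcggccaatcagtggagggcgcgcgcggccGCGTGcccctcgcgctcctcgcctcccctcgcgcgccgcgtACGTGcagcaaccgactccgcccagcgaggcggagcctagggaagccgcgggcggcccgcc

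The PDK4 window held none of the 6 motifs. The PDK1 window held ACGTG on the minus strand at positions -17 and -8 (first base of the match, counted back from the start). That of PDK2 held GCGTG at -161 and an E-box at -129, and that of PDK3 held GCGTG at -102 and ACGTG at -61. Such short motifs are common: 43.2% of 35116 promoter windows of the same length held at least 1 of the HIF cores, and 6.34% held the E-box. These motifs contain CG, and the shares are not matched for base content. GC content was 79.6%, 67.6%, 73.6% and 62.8% in the PDK1, PDK2, PDK3 and PDK4 windows shown, beside a median of 58% over all windows. The FOXO motif was in 2.98% of windows, the estrogen-related receptor motif in 0.854% and the PPAR repeat in 0.0171%. The windows of PDHA1 and PDHB also held HIF cores, with 3 matches to GCGTG before PDHA1 and an E-box at -236 before PDHB. No window was found for PDP1. A match describes the letters in the window and shows no binding, and its absence says nothing of sites elsewhere.

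PDK4 stood at log2 intensities of 6.82 and 6.75 with AZD4547 and aFGF, at 6.69 and 6.76 with aFGF, and at 5.90 and 6.06 with DMSO. Both aFGF groups overlapped each other and lay wholly above the DMSO arrays. On the linear scale of the deposited values this is 113 and 108 with AZD4547 and aFGF, 104 and 108 with aFGF, and 59.6 and 66.5 with DMSO. The log2 fold change was 0.75 (SE 0.07, 1.68-fold) for aFGF over DMSO, 0.81 (SE 0.07, 1.75-fold) for AZD4547 with aFGF over DMSO, and 0.06 (SE 0.07) for AZD4547 with aFGF over aFGF. The authors' deposited table gives ratios of 1.75 for AZD4547 with aFGF and 1.68 for aFGF, both over DMSO. The summed level of 6 fibroblast markers, nearly all of it COL1A2, moved with PDK4 at log2 values of 9.81 to 9.85 with AZD4547 and aFGF, 9.78 to 9.79 with aFGF and 9.51 to 9.69 with DMSO. The fibroblast markers DCN (mean 0.71) and LUM (0.07) were near the bottom of the scale, COL3A1 was lowest with aFGF (3.48 with AZD4547 and aFGF, 2.71 with aFGF, 3.26 with DMSO), and COL1A1 and PDGFRB were highest with DMSO (2.32 and 2.34).

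A second probe set for PDK4 gave a somewhat different picture. Its log2 intensities were 4.57 and 4.43 with AZD4547 and aFGF, 4.78 and 4.65 with aFGF, and 4.23 and 4.01 with DMSO. The order of the groups here was aFGF, then AZD4547 with aFGF, then DMSO, with no overlap between neighbours. Its log2 fold change was 0.60 (SE 0.105) for aFGF over DMSO, 0.38 (SE 0.105) for AZD4547 with aFGF over DMSO and -0.22 (SE 0.105) for AZD4547 with aFGF over aFGF. In a fit of all probe sets the first of these was called and the others were not. Both PDK4 probe sets thus place the 2 aFGF groups above DMSO, and they differ in sign, neither being called, on what AZD4547 added. Averaging them gave log2 fold changes of 0.675, 0.595 and -0.08 in the same order.

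PDK1, a known HIF target, had log2 intensities of 5.66 and 5.50 with AZD4547 and aFGF, 4.84 and 4.96 with aFGF, and 5.14 and 5.37 with DMSO. The aFGF arrays were lowest and those with AZD4547 highest, without overlap. AZD4547 with aFGF over aFGF gave a log2 fold change of 0.68 (SE 0.09, 1.60-fold), and aFGF over DMSO gave -0.35 (SE 0.09, 1.28-fold lower). The second PDK1 probe set had 0.66 (SE 0.12) and -0.66 (SE 0.12) in the same comparisons. The 2 probe sets parted on AZD4547 with aFGF over DMSO, at 0.33 (SE 0.09) and -0.0026 (SE 0.12).

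PDK2, the most widely expressed kinase of the family, had log2 intensities of 4.68 and 4.45 with AZD4547 and aFGF, 3.44 and 3.78 with aFGF, and 4.19 and 4.38 with DMSO. Again the aFGF arrays were lowest and the AZD4547 arrays highest. The log2 fold change was 0.96 (SE 0.13, 1.94-fold) for AZD4547 with aFGF over aFGF and -0.67 (SE 0.13, 1.59-fold lower) for aFGF over DMSO. The other PDK2 probe sets kept these signs at smaller sizes, 0.39 and 0.38 (SE 0.11 and 0.10) for AZD4547 with aFGF over aFGF and -0.21 and -0.24 (SE 0.11 and 0.10) for aFGF over DMSO.

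PDK3 has a single probe set, with log2 intensities of 5.53 and 5.47 with AZD4547 and aFGF, 4.90 and 4.85 with aFGF, and 5.05 and 5.31 with DMSO. The order of the groups was that of PDK1 and PDK2. AZD4547 with aFGF over aFGF gave 0.63 (SE 0.09, 1.54-fold) and aFGF over DMSO gave -0.30 (SE 0.09, 1.23-fold lower). For PDK1, PDK2 and PDK3 the difference between AZD4547 with aFGF and DMSO was 0.33, 0.28 and 0.32 (SE 0.09, 0.13 and 0.09), and none of these was called. In the first probe sets of PDK1, PDK2, PDK3 and PDK4 DMSO replicate 1 lay below DMSO replicate 2. The other PDK2 probe sets kept this order. The second probe sets of PDK1 (4.06 against 3.78) and PDK4 (4.23 against 4.01) had the reverse. Without DMSO replicate 1 the PDK3 difference from DMSO was 0.19 with AZD4547 and aFGF and -0.435 with aFGF. It was 0.458 and -0.168 without DMSO replicate 2. The summed level of the 13 endometrial and epithelial markers moved in the same order, with log2 values of 9.30 to 9.34 with AZD4547 and aFGF, 8.34 to 8.44 with aFGF and 9.02 to 9.04 with DMSO, and its part in the kinase values was not tested. FGFR2 was the largest part of the sum in each group, at mean log2 intensities of 8.59 with AZD4547 and aFGF, 6.96 with aFGF and 8.15 with DMSO. HOXA10 came next, at 7.24, 6.79 and 7.13 in the same order. KRT18 ran the other way, at 4.07, 4.60 and 4.16 in the same order.

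**Figure D1:**
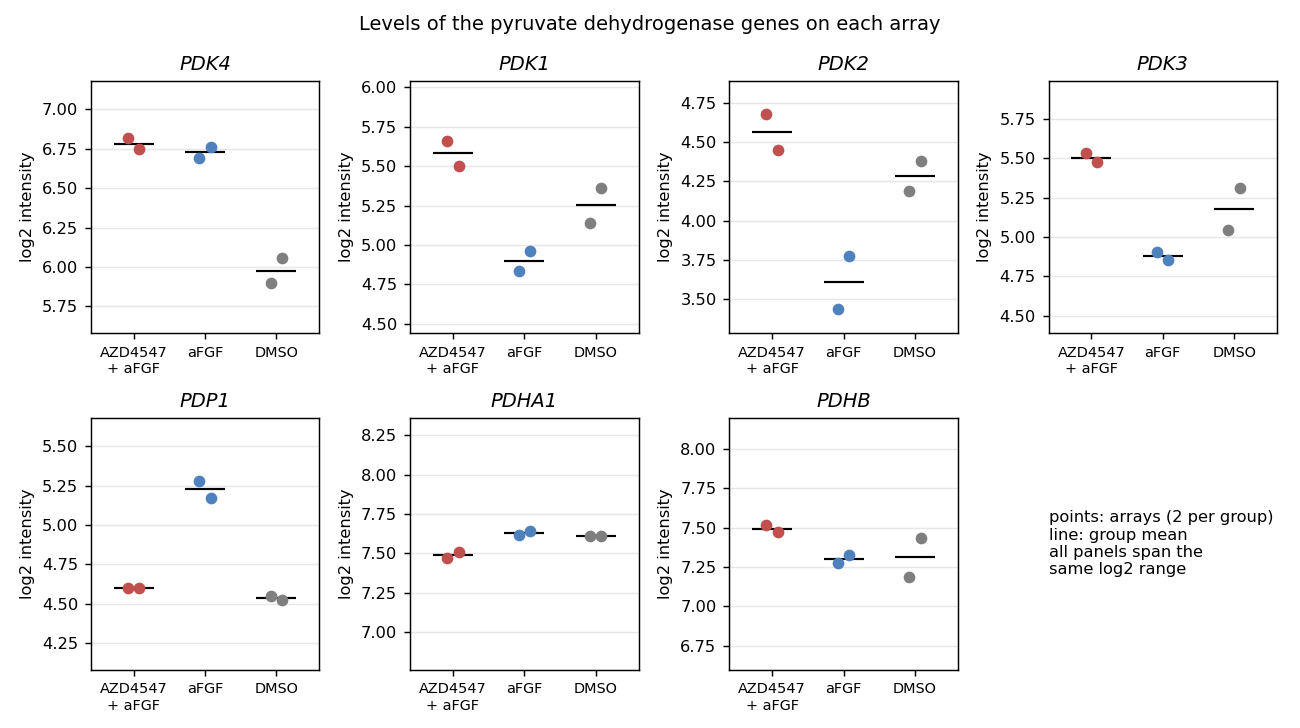
log2 intensity of the 7 genes on each array, by group (x axis), with points for the 2 arrays of a group and a line at their mean; all panels span the same range. PDK4 is high in both groups given aFGF, PDK1, PDK2 and PDK3 are lowest with aFGF alone, and PDP1 is highest there.

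PDP1, the phosphatase subunit that opposes the kinases, had the reverse profile of PDK1, PDK2 and PDK3. Its log2 intensities were 4.60 and 4.60 with AZD4547 and aFGF, 5.28 and 5.18 with aFGF, and 4.55 and 4.52 with DMSO. The aFGF arrays stood well above the others, and the AZD4547 arrays lay just above the DMSO arrays. The log2 fold change was -0.63 (SE 0.08, 1.54-fold lower) for AZD4547 with aFGF over aFGF, 0.69 (SE 0.08, 1.61-fold) for aFGF over DMSO and 0.06 (SE 0.08) for AZD4547 with aFGF over DMSO. The other PDP1 probe sets had the same signs, at -0.44 and -0.41 (SE 0.14 and 0.16) and at 0.53 and 0.47 (SE 0.14 and 0.16). They were dim: 1 exceeded the array median on 2 arrays and the other on 0.

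The catalytic subunits moved little. PDHA1, the subunit that the kinases phosphorylate, had log2 intensities of 7.47 and 7.51 with AZD4547 and aFGF, 7.62 and 7.65 with aFGF, and 7.61 and 7.61 with DMSO. The AZD4547 arrays lay slightly below both other groups, by -0.14 (SE 0.05) against aFGF and -0.12 (SE 0.05) against DMSO. Neither difference was called. All 5 PDHA1 probe sets were lower with AZD4547 than with aFGF, by log2 fold changes from -0.20 to -0.11, and 1 of them was called in the fit of all probe sets. The probe set that stands for PDHA1 carries the suffix _x_at, which marks probes that can match other transcripts.

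PDHB, the partner subunit of PDHA1 in the same enzyme, had log2 intensities of 7.52 and 7.47 with AZD4547 and aFGF, 7.28 and 7.33 with aFGF, and 7.19 and 7.43 with DMSO. The AZD4547 arrays were highest, but the DMSO arrays differed from each other by more than the group means did. The log2 fold change was 0.19 (SE 0.07) for AZD4547 with aFGF over aFGF and -0.01 (SE 0.07) for aFGF over DMSO, neither called.

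In the fit across all genes, with calls at a Benjamini-Hochberg adjusted p under 0.05 from limma, 5 of 7 members were called for aFGF over DMSO, where 15.6% of all genes were. PDK4 and PDP1 were higher, as were 5.92% of all genes, and PDK1, PDK2 and PDK3 were lower, as were 9.72%. For AZD4547 with aFGF over aFGF 4 of 7 were called, against 25.7% of all genes. PDK1, PDK2 and PDK3 were higher (15.6% of all genes) and PDP1 was lower (10.1%). For AZD4547 with aFGF over DMSO 1 of 7, PDK4, was called and higher, where 4.68% of all genes were called, 2.28% higher and 2.41% lower. Since the members were chosen with these contrasts known, nothing is read from the counts. The comparisons share the aFGF or DMSO arrays, so the opposite signs of PDK1, PDK2, PDK3 and PDP1 between them are in part tied.

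The calls of PDK1, PDK2, PDK3 and PDP1 for AZD4547 with aFGF over aFGF held under all 20 alternative settings. So did those of PDK4 and PDP1 for aFGF over DMSO. The other deposited table held the same values, and member symbols did not change on updating, so these settings could hardly alter a member call. Every setting uses the arrays on which PDK4 was picked, so the tallies are a description too. With aFGF the call of PDK1 was lost in 7 of the 20 and that of PDK3 in 11, leaving out any array except DMSO replicate 1 being among them for both, and that of PDK2 in 1 (without aFGF replicate 1). Without an intensity trend in the variance prior the PDK4 call for AZD4547 with aFGF over DMSO was lost. In that setting 0 of all genes were called higher in this comparison and 10 lower, so every rise called there was lost. Some settings also added calls: for AZD4547 with aFGF over aFGF PDHA1 was called lower in 8 of the 20 and PDHB higher in 3, and for AZD4547 with aFGF over DMSO PDK1 and PDK3 were each called higher in 3 and PDHB in 1.

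**Figure D2:**
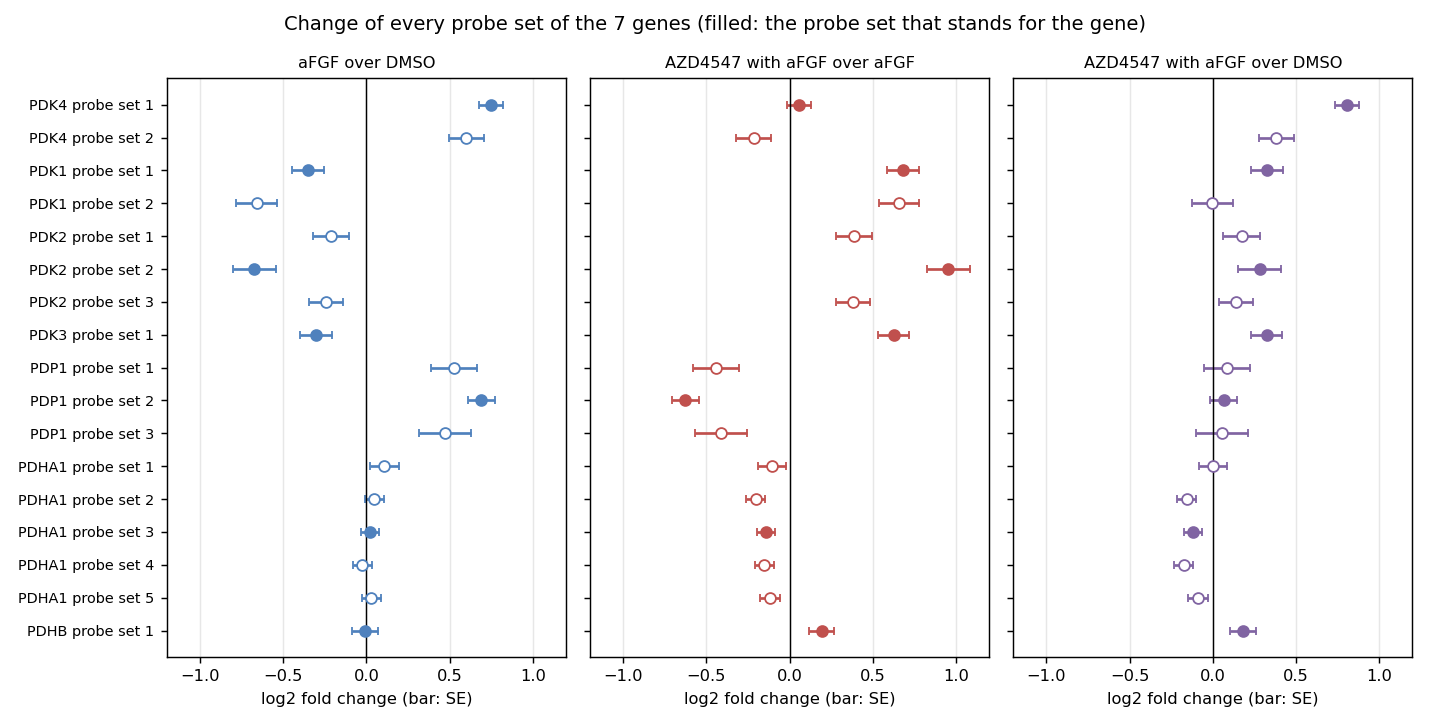
log2 fold change (x axis, bar SE) of the 17 probe sets of the 7 genes (rows) in the 3 comparisons, with the probe set that stands for a gene filled. PDK1, PDK2 and PDK3 lie left of 0 for aFGF over DMSO and right of 0 for AZD4547 with aFGF over aFGF, PDP1 does the opposite, and the PDK4 probe sets stay right of 0 in both comparisons with DMSO.

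Genes with the profile most like that of PDK4 were sought over the 6 arrays by the root mean square difference of log2 intensities, each gene centred on its own mean, among 9519 genes brighter than the median gene. The closest were RND3 (0.147), the ETS factor ELF1 (0.152), HYCC2 (0.156), the katanin-like gene KATNAL1 (0.174), the inositol transporter SLC5A3 (0.186), the palmitoyltransferase ZDHHC17 (0.188), the deubiquitinase CYLD (0.188) and GAS1 (0.195), a gene first known from growth-arrested cells. The distances are on the log2 scale and hold for 6 arrays of 3 groups. RND3 had log2 intensities of 6.32 and 6.23 with AZD4547 and aFGF, 6.11 and 6.13 with aFGF and 5.58 and 5.84 with DMSO. All 8 had smaller rises than PDK4, with log2 fold changes from 0.36 to 0.52 for aFGF over DMSO and from 0.33 to 0.56 for AZD4547 with aFGF over DMSO. With probe sets averaged, CYLD (0.145), HYCC2 (0.147), KATNAL1 (0.143) and ELF1 (0.22) were not called for aFGF over DMSO. RND3 (0.466), SLC5A3 (0.361), ZDHHC17 (0.408) and GAS1 (0.506) still were. The 8 were picked for likeness to PDK4 on these same arrays, so their calls against DMSO follow in part from the choice. These calls were lost in 0 (GAS1) to 8 (KATNAL1) alternatives for aFGF over DMSO. For AZD4547 with aFGF over DMSO they were lost in 2 (SLC5A3) to 9, and CYLD, lost in 9, also turned in sign in 1 more. GAS1 was lower with AZD4547 and aFGF than with aFGF (-0.18, SE 0.05). None of the kinases PDK1, PDK2 and PDK3 was among them.

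**Figure D3:**
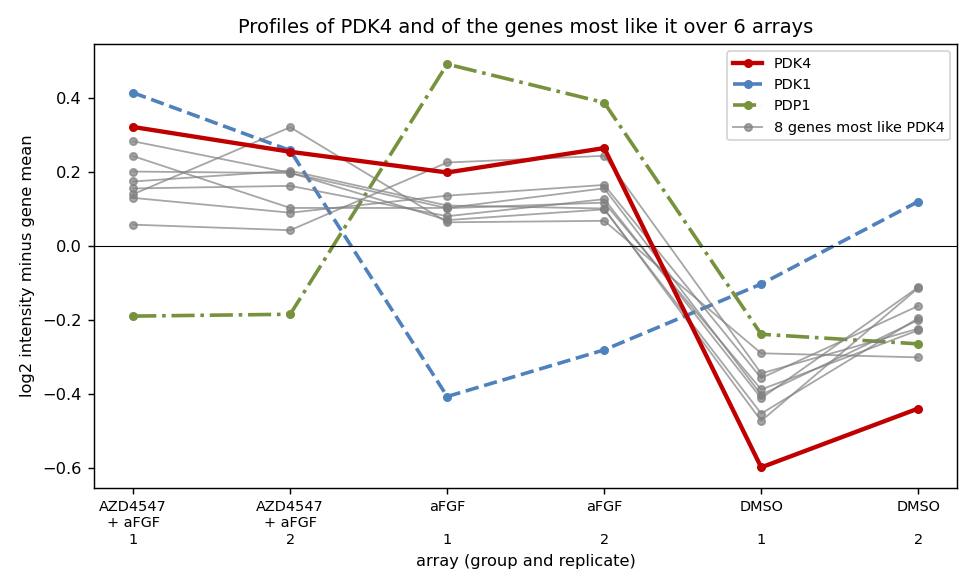
log2 intensity minus each gene's mean (y axis) on the 6 arrays (x axis) for PDK4, PDK1, PDP1 and the 8 genes most like PDK4. PDK4 and the genes like it are low on the DMSO arrays and high on the other 4, while PDK1 is lowest and PDP1 highest on the aFGF arrays.

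Genes around this step were described from 9 lists chosen for their roles, of which 114 of 115 genes were measured. For AZD4547 with aFGF over aFGF 43 rose and 13 fell, for aFGF over DMSO 9 rose and 29 fell, and for AZD4547 with aFGF over DMSO 9 rose and 4 fell (limma, adjusted p under 0.05). That is 37.7% up and 11.4% down, 7.89% up and 25.4% down, and 7.89% up and 3.51% down, beside 15.6% and 10.1%, 5.92% and 9.72%, and 2.28% and 2.41% of all genes in the same comparisons. Counts in the shorter lists are to be read against these shares of all genes. As for the members, the comparisons share arrays, so opposite signs of a list gene between them are in part tied. The median log2 fold changes over these genes were 0.11, -0.09 and 0.03, beside -0.020, -0.0083 and -0.014 over all genes.

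The other parts of the complex moved little, and the largest changes among them, those of PDP2, were not called. Of 6 measured partner genes, 2 rose with AZD4547 over aFGF alone and 1 rose with aFGF over DMSO. PDP2 was at -0.33 (limma adjusted p = 0.059) and 0.30 (adjusted p = 0.12) in these comparisons (both SE 0.12). The signs were those of PDP1, and both comparisons use the same aFGF arrays. DLD, the dihydrolipoamide dehydrogenase, had a log2 fold change of 0.22 (SE 0.07, limma adjusted p = 0.028) and PDPR, the regulatory subunit of the phosphatase, one of 0.24 (SE 0.08, adjusted p = 0.041) for AZD4547 with aFGF over aFGF. PDHX, which anchors DLD in the complex, stood at 0.24 (SE 0.07, adjusted p = 0.038) for aFGF over DMSO. These calls were lost in 8, 10 and 10 of 20 alternatives, and PDPR had the opposite sign without _x_at probe sets. DLAT, the acetyltransferase core, was at -0.20 (SE 0.08, adjusted p = 0.17) for AZD4547 with aFGF over DMSO, where no partner was called by limma (1 higher and 1 lower at an unadjusted p under 0.05). Lipoylation genes, which attach the lipoic acid that the complex needs, rose in 2 and fell in 2 of 7 cases for AZD4547 with aFGF over aFGF. NFU1, an iron-sulfur carrier, rose by 0.35 (SE 0.06), LIPT2 by 0.65 (SE 0.13) from a dim mean level of 2.56 with aFGF, while the lipoyl synthase LIAS fell by 0.33 on the log2 scale and BOLA3, which aids NFU1, fell by 0.23. With aFGF over DMSO LIAS was at 0.30 (SE 0.09) and LIPT2 at -0.43 (SE 0.13). Against DMSO none of the 7 was called with AZD4547 and aFGF (1 higher and 3 lower at an unadjusted p under 0.05 in limma), and BOLA3 stood at -0.25 (SE 0.08). The calls of BOLA3 and LIAS for AZD4547 with aFGF over aFGF were lost in 9 and 6 of 20 alternatives, and for aFGF over DMSO those of LIAS and LIPT2 in 10 of 20 and 11 of 19.

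In the branched-chain ketoacid dehydrogenase, a sister complex with its own kinase and phosphatase, the 3 called genes had the signs of PDK1, PDK2 and PDK3. Of 8 genes of the sister complexes 3 rose with AZD4547 over aFGF alone and 3 fell with aFGF over DMSO. BCKDHB, its beta subunit, had 0.90 (SE 0.11, limma adjusted p = 7.8e-05) for AZD4547 with aFGF over aFGF and -0.70 (SE 0.11, adjusted p = 0.0011) for aFGF over DMSO. PPM1K, its phosphatase, had 0.89 and -0.51 (both SE 0.11), and BCKDHA, the alpha subunit, 0.26 and -0.26 (both SE 0.07). DBT, its core, was at 0.30 and 0.02 (both SE 0.11) and its kinase BCKDK at -0.13 and -0.13 (both SE 0.07), none called. With probe sets averaged PPM1K had 0.366 and -0.275, the second not called (adjusted p = 0.074). PPM1K differed in sign from PDP1, the phosphatase of the pyruvate complex, in both comparisons. That difference was not tested. None of the 8 was called by limma for AZD4547 with aFGF over DMSO (2 higher and 1 lower at an unadjusted p under 0.05), where PPM1K was at 0.38 (SE 0.11, adjusted p = 0.072).

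Among 13 genes of pyruvate supply and other fates, 4 rose and 2 fell with AZD4547 over aFGF alone, and 3 fell with aFGF over DMSO. MPC1, a subunit of the carrier that brings pyruvate into mitochondria, had 0.47 (SE 0.10) and -0.49 (SE 0.10) in these comparisons. The pyruvate carboxylase PC had 0.64 and -0.48 (both SE 0.11) and the alanine transaminase GPT2 had 0.61 and -0.31 (both SE 0.07). With probe sets averaged these were 0.282 and -0.26 for PC and 0.277 and -0.138 for GPT2, and the aFGF over DMSO calls of both were lost (adjusted p = 0.097 and 0.25). ME2, a mitochondrial malic enzyme, fell by 0.35 on the log2 scale with AZD4547 over aFGF alone. Against DMSO, GPT2 was 0.29 higher and the monocarboxylate carrier SLC16A1 -0.27 (SE 0.07 and 0.06), calls lost in 10 and 11 of 20 alternatives. In the citric acid cycle, which the complex feeds, 2 of 15 genes rose and 1 fell for AZD4547 with aFGF over aFGF, with IDH2 at 0.59 (SE 0.06) and IDH3A, a subunit of the other isocitrate dehydrogenase, at -0.35 (SE 0.07). These are 13.3% and 6.67% of the list, near the shares of all genes. With aFGF over DMSO 2 of 15 fell, IDH2 being at -0.56 (SE 0.06). SDHA, called at 0.26 and -0.21 in these comparisons, turned to -0.295 and 0.297 without _x_at probe sets. IDH3A also fell against DMSO (-0.28, SE 0.07), a call lost in 13 of 20 alternatives.

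PDK4 is often grouped with fatty acid oxidation genes, since sparing pyruvate goes with burning fat. Of 18 measured genes of that kind (CPT1B was not measured), 7 rose and 1 fell for AZD4547 with aFGF over aFGF, 1 rose and 3 fell for aFGF over DMSO, and none was called by limma for AZD4547 with aFGF over DMSO (0 also at an unadjusted p under 0.05). CPT1A, the gate for fatty acid entry into mitochondria, had 0.62 (SE 0.06, adjusted p = 2.4e-05) and -0.64 (SE 0.06, adjusted p = 5.3e-05) in the first 2 of these. UCP2 (0.46, SE 0.12), ACADS (0.43, SE 0.12) and CPT1C (0.43, SE 0.10) were the next rises with AZD4547, and the lipid droplet protein PLIN2 (-0.40, SE 0.07) and ACADS (-0.42, SE 0.12) fell with aFGF, where HADHB rose (0.23, SE 0.06). The aFGF over DMSO calls of ACADS and HADHB were lost in 10 and 7 of 20 alternatives, and without aFGF replicate 1 ACADS was at 0.236 with AZD4547 and -0.221 with aFGF, neither called. UCP2 was at 0.17 (SE 0.12) for AZD4547 with aFGF over DMSO. With aFGF over DMSO, CPT1A was lower and PDK4 higher.

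Of 17 transcription factors and coactivators known to act on PDK genes, 5 rose and 3 fell for AZD4547 with aFGF over aFGF and 2 rose and 3 fell for aFGF over DMSO. PPARA, the receptor that raises PDK4 in fasting liver, had log2 intensities averaging 4.26 with AZD4547 and aFGF, 3.03 with aFGF and 3.72 with DMSO. It rose by 1.23 (SE 0.10) with AZD4547 over aFGF alone and stood at -0.69 (SE 0.10) for aFGF over DMSO. With probe sets averaged these were 0.418 and -0.21, the second not called (adjusted p = 0.14). FOXO3 rose by 0.51 (SE 0.08) with AZD4547 over aFGF alone, and PPARGC1B, a coactivator, was at -0.49 (SE 0.16), a call lost in 4 of 20 alternatives. All FOXO3 probe sets used carry the suffix _x_at, so the FOXO3 rise could not be seen without such probe sets. MYC, which acts on several metabolic genes, was at -2.30 (SE 0.08) for AZD4547 with aFGF over aFGF and 0.92 (SE 0.08) for aFGF over DMSO. EPAS1, a HIF subunit, was at 0.37 (SE 0.09) and RXRA at -0.29 (SE 0.08) for aFGF over DMSO, and neither was called with probe sets averaged (0.215 and -0.165). Against DMSO, PPARA was higher with AZD4547 and aFGF (0.54, SE 0.10, but 0.208 and not called with probe sets averaged). MYC (-1.38, SE 0.08) and the estrogen-related receptor ESRRA (-0.31, SE 0.06) were lower there. The ESRRA call was lost in 9 of 20 alternatives, among them averaged probe sets (limma adjusted p = 0.072), and that of MYC in 0.

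Other genes known as FOXO targets rose in 8 and fell in 1 of 16 cases for AZD4547 with aFGF over aFGF (median log2 fold change 0.38). For aFGF over DMSO 1 rose and 7 fell (median -0.27). CCNG2, a cyclin of resting cells, was at 1.57 (SE 0.08) and -0.84 (SE 0.08), PNRC1 at 1.60 and -0.87 (both SE 0.08) and CITED2 at 1.30 and -1.07 (both SE 0.09). With probe sets averaged CCNG2 was at 0.89 and -0.508, both still called. TRIB1 went the other way, at -1.84 and 1.87 (both SE 0.07). For AZD4547 with aFGF over DMSO CCNG2 (0.73, SE 0.08) and PNRC1 (0.74, SE 0.08) were higher. PDK4, itself known as a FOXO target, was like CCNG2 and PNRC1 in being higher with AZD4547 and aFGF than with DMSO, but with aFGF over DMSO it was higher where they were lower.

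Other HIF targets rose in 10 and fell in 3 of 14 cases for AZD4547 with aFGF over aFGF (median 0.50), and 3 rose and 7 fell for aFGF over DMSO (median -0.26). The bifunctional glycolytic regulator PFKFB4 had log2 intensities averaging 5.54 with AZD4547 and aFGF, 4.10 with aFGF and 5.03 with DMSO. Its log2 fold change was 1.44 (SE 0.09, adjusted p = 6.1e-07) for AZD4547 with aFGF over aFGF and -0.94 (SE 0.09, adjusted p = 4.2e-05) for aFGF over DMSO. ALDOC was at 0.85 and -0.49 (both SE 0.06), and at 0.473 and -0.29, both called, without _x_at probe sets. ANKRD37 rose by 0.72 (SE 0.11) with AZD4547 and the glucose transporter SLC2A1 was at -0.55 (SE 0.07) with aFGF over DMSO. With probe sets averaged SLC2A1 was at -0.249 and ANKRD37 at 0.317, neither called (adjusted p = 0.067 and 0.052), and PFKFB4 was at 0.821 and -0.361, both called. ADM, the vasodilator adrenomedullin, went the other way at -0.79 and 0.87 (both SE 0.06). So did PFKFB3 (-0.46 and 0.37, both SE 0.06) and VEGFA (-0.29 and 0.30, both SE 0.07), called in both comparisons. Against DMSO 5 of the 14 were higher with AZD4547 and aFGF, with PFKFB4 at 0.51 (SE 0.09), the mitophagy genes BNIP3L at 0.45 (SE 0.06) and BNIP3 at 0.40 (SE 0.06), and ALDOC at 0.36 (SE 0.06), which was not called without _x_at probe sets (0.184). PDK1 had the signs of PFKFB4 and ALDOC with its first probe set in all 3 comparisons, though its difference from DMSO with AZD4547 and aFGF was not called.

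**Figure D4:**
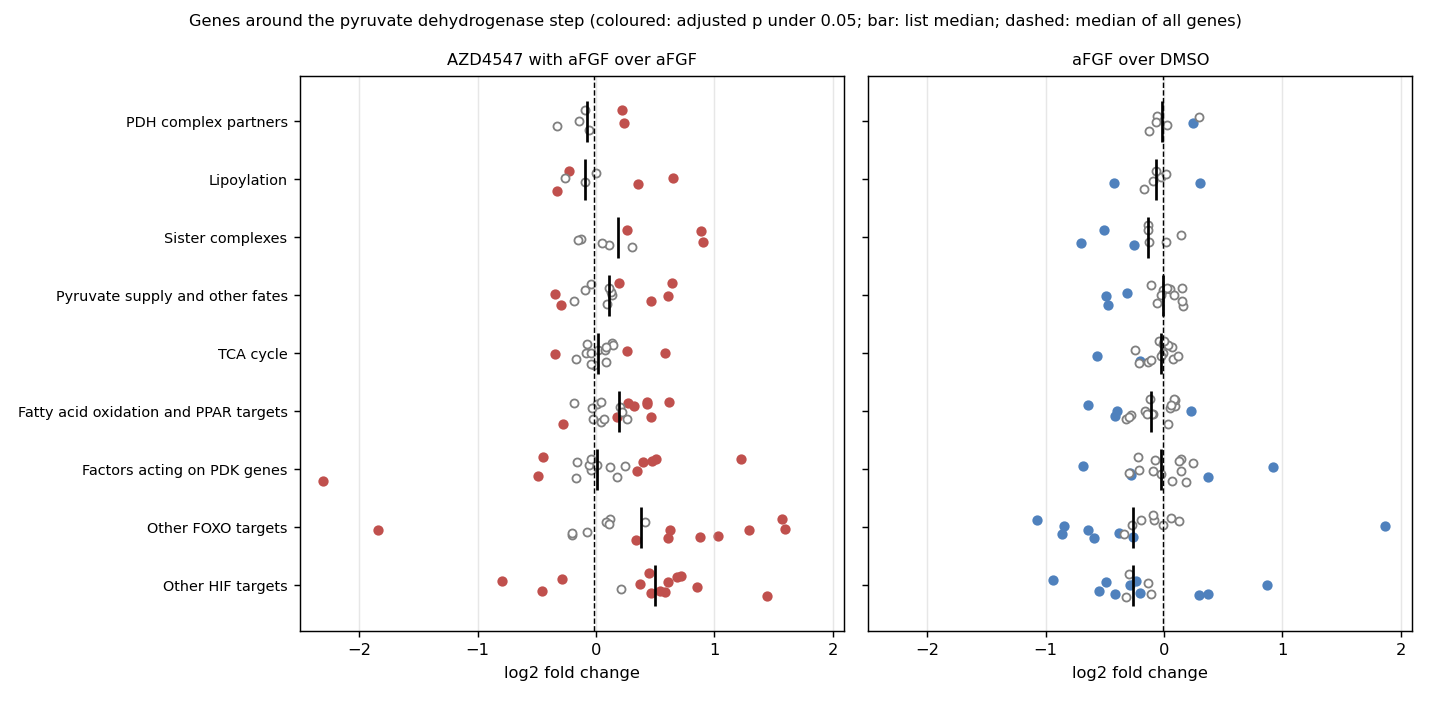
log2 fold change (x axis) of the genes of 9 lists (rows) for AZD4547 with aFGF over aFGF (left) and aFGF over DMSO (right); filled points have an adjusted p under 0.05, bars are list medians and the dashed line is the median of all genes. The medians of the FOXO and HIF target lists lie at 0.38 and 0.50 on the left and at -0.27 and -0.26 on the right.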

How the data were processed

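Affymetrix arrays of total RNA from 6 cultures (2 per group, 3 groups) were analysed, labelled from 500 ng of RNA per the labels' protocols. The deposited values were intensity values on a linear scale made with RMA, per the submitters' processing notes, with no version. Neither the step back to a linear scale nor the array type is stated. The fixed test design had allowed for log2 values, so the log2 of each deposited intensity was taken here (no pseudocount). The authors' deposited table also holds a ratio of group means over DMSO, printed once, and a deposited p-value of unstated test, which was not used.

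For 19040 genes, the brightest probe set with only 1 symbol stood for the gene. Symbols were updated through Entrez identifiers with a RefSeq table (47089 of 47340 matched). The model had 1 mean per group over all 6 arrays, with moderated variances following the intensity trend (limma 3.58.1, R 4.3.3), and p-values were adjusted by Benjamini-Hochberg over all genes of a comparison. The table holds no detection calls. A low position against the array median is only called dim. The number of arrays limits the precision. The fit was tested on simulated data.

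Members and gene lists were chosen with earlier results of these data known. Named list genes were up to 4 called genes per list and comparison with the largest change and no overlap between groups, or the largest change where none was called. Of the 7 members, 6 had a promoter window in the RefSeq table. Alternatives tried were the variance prior, the features fitted, the probe set per gene, symbols, normalization, a pseudocount of 1, the other deposited table, the groups fitted, a replicate block and leaving out each array.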

Additional observations from a re-analysis of the deposited data

How the results depend on the processing

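Calls and sizes were recomputed under 20 alternatives. Members called for aFGF over DMSO numbered 5, but 3 without the intensity trend, 3 with only the groups compared, and 2 to 5 when an array was left out. For AZD4547 with aFGF over aFGF they numbered 4 to 6. For AZD4547 with aFGF over DMSO the count of 1 became 0 without the trend, 3 without dim genes and 3 with the replicate block. Without the trend 3 members were higher there at an unadjusted p under 0.05 with limma, as were 1456 of all 19040 genes. Since the members were chosen with these contrasts known, nothing is read from that count. The log2 fold change of PDK4 moved with the probe sets averaged, to 0.675 for aFGF over DMSO, -0.08 for AZD4547 with aFGF over aFGF and 0.595 for AZD4547 with aFGF over DMSO. Leaving out an array gave 0.671 to 0.83, 0.023 to 0.09 and 0.728 to 0.886. Called pathway genes numbered 20 instead of 38 for aFGF over DMSO without the trend, and 1 (no trend) or 8 (only the groups compared) instead of 13 for AZD4547 with aFGF over DMSO. When an array was left out they ranged over 17 to 38 and 1 to 20 in these comparisons and over 35 to 64 for AZD4547 with aFGF over aFGF. Over all genes, 2979 calls for aFGF over DMSO became 1489 without the trend, and 892 for AZD4547 with aFGF over DMSO became 10 without the trend and 217 with only the groups compared. They ranged over 1147 to 3448, 3046 to 5667 and 29 to 1556 (the last without DMSO replicate 2) when an array was left out, where a lone array is taken to vary as the rest do. Signs turned for SDHA (0.297 with aFGF, -0.295 with AZD4547 over aFGF, without _x_at probe sets or with the most variable probe set) and PDPR (-0.109, without _x_at). They also turned, for AZD4547 with aFGF over aFGF, for ZDHHC17 (-0.071 averaged, -0.212 most variable probe set), RND3 (-0.073, most variable) and HYCC2 (-0.026 to 0.113 when an array was left out, lowest without AZD4547 replicate 1). Against DMSO they turned for CYLD (-0.128, most variable) and UCP2 (-0.049 to 0.386, lowest without DMSO replicate 1). The cause was not tested. Same-numbered arrays deviated from their group means with correlations across brighter genes of 0.064, -0.062 and 0.137, so the numbers are not taken to pair the cultures. The replicate block gave 5, 4 and 3 called members.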
